A study of Mus musculus with 12 samples.

Results

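The genes described here are 10 members of the BCL2 family, the proteins that set the balance between survival and apoptosis at the mitochondrial outer membrane. They are listed by name for their known function, by a rule that uses no measured value, and were found by Ensembl gene ID. The list was chosen with earlier results of these data known. They are 10 of the 41388 genes in the deposited count tables. All 10 passed the filter on low counts, which left 12914 genes for testing. Gene expression was measured by RNA sequencing in mouse peritoneal macrophages that had been elicited with thioglycolate, an irritant broth, and collected 4 days later. The 12 libraries formed 4 groups of 3. Macrophages labelled PPARγ knockout were stimulated for 8 h with palmitate (250 uM), a saturated fatty acid of the diet, and LPS (100 ng/ml), an endotoxin from bacterial cell walls. Control macrophages, labelled Cre (WT), received the same stimulus. The remaining groups were macrophages labelled PPARγ knockout and control macrophages, each kept for 8 h with the vehicle, BSA in PBS. All 4 groups carried LysM-Cre, a recombinase driver active in myeloid cells. The labels name no PPARγ allele, and give neither the age of the mice nor the number of mice behind a library. The treatment field of the stimulated libraries names palmitate without LPS, while the titles and the design text give both.

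In the mitochondrial pathway of apoptosis, BAX and BAK (Bak1) form pores in the outer membrane and release cytochrome c, which assembles the apoptosome and starts the caspases. BCL2, BCL-XL (Bcl2l1) and MCL1 are guardians that hold these effectors and their activators in check. BH3-only proteins relay stress signals: BIM (Bcl2l11), BID, PUMA (Bbc3), NOXA (Pmaip1) and BAD bind guardians, and BIM and BID also activate BAX and BAK directly. In macrophages, LPS is known to induce survival genes of this family, and MCL1 is a short-lived protein that has to be replaced by continued synthesis. Much control of the family acts on the proteins, by cleavage of BID and phosphorylation of BAD for example, and RNA levels do not report it.

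The libraries held 17960457 to 22696385 counts. Treatment separated them along the first principal component, with 85.2% of the variance. Vehicle replicate 1 of the macrophages labelled knockout stood apart on the second component, at 30.6, against -7.99 and -10.4 for replicates 2 and 3. Its ribosomal protein genes held 1.01% of the counts, against 0.619% to 0.758% in the other 11 libraries. Fold changes are given with and without this library for some comparisons of some members, and otherwise include it. The responses of Mcl1, Bcl2l1 and Bak1 in macrophages labelled knockout are given only with it. Group means of levels include it. All 8 macrophage markers were detected in every group. Their sum ranged over 7520 to 7801 CPM (counts scaled to the TMM-normalised library size) in stimulated libraries labelled knockout and 7036 to 7956 in stimulated controls. With vehicle it was 6926 to 8843 in libraries labelled knockout and 6109 to 6906 in controls. Cd68 made up most of it, at a mean of 4954 of 6427 CPM in vehicle controls, where Fcgr1 had 32.1 and Lyz2 21.2 CPM. With stimulation 5 of the 8 rose and 3 fell in macrophages labelled knockout, and 4 rose and 2 fell in controls. Neutrophil markers summed to 143 to 173, 106 to 115, 111 to 114 and 77.1 to 80.6 CPM in the same order of groups, with the defining Ly6g at 0 in all 4. Fibroblast and mesothelial markers summed to 197 to 346, 143 to 166, 144 to 190 and 111 to 132 CPM. In bulk RNA, fewer cells of a type and less RNA per cell cannot be told apart.

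Pparg, the gene named in the knockout label, went against it. It had 111, 91.0 and 95.9 CPM in the vehicle libraries labelled knockout, against 62.3, 61.6 and 61.0 CPM in vehicle controls. The difference was a log2 value of 0.69 ± 0.11 (SE; edgeR quasi-likelihood test, adjusted p = 0.00124). After palmitate plus LPS it had 3.59, 5.04 and 4.73 CPM in libraries labelled knockout and 3.63, 2.86 and 4.14 CPM in controls. A count over all exons includes those outside a deletion, so these values cannot show whether an exon was lost. Nor can they show whether the genotype labels were exchanged, which was not tested, and the sign of every genotype difference below rests on the labels. The group is therefore called labelled knockout throughout.

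The members lie apart in the genome, per the coordinates of the deposited tables (GRCm38). The guardian genes are Bcl2 on chromosome 1 (106538178 to 106714274, minus strand), Bcl2l1 on chromosome 2 (152780668 to 152831728, minus strand) and Mcl1 on chromosome 3 (95658721 to 95663176, plus strand). The effector genes are Bax on chromosome 7 (45461695 to 45466898, minus strand) and Bak1 on chromosome 17 (27019810 to 27029009, minus strand). The BH3-only genes are Bcl2l11 on chromosome 2 (128126038 to 128162547, plus strand), Bid on chromosome 6 (120891930 to 120916853, minus strand), Bbc3 on chromosome 7 (16309616 to 16318205, plus strand) and Bad on chromosome 19 (6941861 to 6951898, plus strand), with Pmaip1 placed where it is described. Bcl2l11 and Bcl2l1 share chromosome 2, and Bbc3 and Bax share chromosome 7. Counts are per gene, so splice forms cannot be told apart. GENCODE M21 lists 8 coding transcripts of Bcl2l1, whose long form protects and whose short form promotes death in humans, and 5 of Bcl2l11. The strand setting of the counting is not given in the sources used here, so reads in exons shared with a gene on the other strand cannot be assigned with certainty. Among genes in the deposited tables, such stretches are 628 bases between Bid and Bcl2l13 and 558 bases between Bcl2 and D630008O14Rik. Others are 524 bases between Bad and Gpr137 and 437 bases between Bak1 and Ggnbp1. D630008O14Rik had at most 3 counts in a library.

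Promoter sequences are shown for 3 members on which the results below turn: Bcl2l11, the member that differed between genotype labels after stimulation, Bid, the member with the highest fold increase, and Bax, the most abundant member per length. Each is the 250 bases before a RefSeq transcription start (GRCm38.p6), 5′ to 3′ on the gene's strand. Capitals mark matches on either strand to the NF-kB letters (GGG and CC with any 5 bases between them), to GTAAACA (FOXO) or to CACGTG (E-box).
Bcl2l11 (chr2:128125788-128126037, plus strand): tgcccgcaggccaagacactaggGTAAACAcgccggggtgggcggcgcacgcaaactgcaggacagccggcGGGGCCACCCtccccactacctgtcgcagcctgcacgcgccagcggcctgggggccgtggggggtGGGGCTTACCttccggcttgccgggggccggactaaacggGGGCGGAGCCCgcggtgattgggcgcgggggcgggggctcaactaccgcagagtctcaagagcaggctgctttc
Bid (chr6:120916825-120917074, minus strand): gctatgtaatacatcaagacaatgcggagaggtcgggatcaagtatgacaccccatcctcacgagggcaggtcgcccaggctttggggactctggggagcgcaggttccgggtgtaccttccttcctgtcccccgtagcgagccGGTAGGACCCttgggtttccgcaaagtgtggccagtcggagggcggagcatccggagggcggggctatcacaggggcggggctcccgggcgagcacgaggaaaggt
Bax (chr7:45466899-45467148, minus strand): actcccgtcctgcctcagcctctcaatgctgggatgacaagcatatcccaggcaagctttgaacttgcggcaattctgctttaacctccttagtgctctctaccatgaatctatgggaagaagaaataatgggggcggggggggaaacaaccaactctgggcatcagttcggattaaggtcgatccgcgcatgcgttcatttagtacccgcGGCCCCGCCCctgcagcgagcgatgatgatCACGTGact
The Bcl2l11 window shown holds the FOXO letters at bases 24 to 30, which begin at position -227 from the start. It holds NF-kB letters at bases 72 to 81, 137 to 146 and, overlapping on both strands, 177 to 187. Bcl2l11 has another RefSeq window (chr2:128127325-128127574), not shown, which holds NF-kB letters but no FOXO letters. The Bid window holds the NF-kB letters at bases 145 to 154. The Bax window holds them at bases 212 to 221 and an E-box at bases 242 to 247, which begins at position -9. RefSeq gave 15 such windows for 9 of the 10 members, and none was used for Pmaip1. The NF-kB letters occurred in 13 of the 15, and in 45.8% of all 32851 mouse promoter windows of this length. The fixed letters of this pattern are all G or C. The 13 windows that held it had 53.2% to 81.6% GC, and the 2 without it, both of Bcl2l1, 47.6% and 48.4%. The part of GC content in this count was not tested. Of the Bbc3 windows 2 overlap, so the 15 windows are not independent. The FOXO letters occurred in 2 of the 15, the one shown and a Bbc3 window, against 3.17% of all windows. The E-box letters also occurred in 2, the one shown and another Bbc3 window, against 6.02% of all. Neither the interferon-stimulated response element (GAAA, any 2 bases, GAAA) nor TGANTCA (AP-1) occurred in the 15 windows, and all windows held them in 2.98% and 6.75%. A match is a string of letters, not a measured binding site.

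Levels of different genes were compared per exon length, as RPKM (the CPM value per kilobase of exon). The deposited exon length was 869 bases for Bax, against 3485 for Mcl1 and 4586 for Bcl2l1. Without the division by length, vehicle controls averaged 177 CPM for Bax, 163 for Bcl2l1 and 141 for Mcl1. Bax stood far above the other members in every group, at 309 ± 8.43 RPKM in stimulated libraries labelled knockout, 357 ± 12.1 in stimulated controls, 232 ± 51.8 in vehicle libraries labelled knockout and 204 ± 15.2 in vehicle controls (SD, n = 3 each here and below). In stimulated libraries labelled knockout the order ran on through Bid at 60.1 ± 0.893, Mcl1 at 57.6 ± 1.47, Bcl2l1 at 42.8 ± 2.55, Bad at 23.0 ± 1.22, Bak1 at 6.23 ± 0.256, Pmaip1 at 4.82 ± 0.394 and Bcl2l11 at 3.34 ± 0.238 RPKM. Bbc3 at 0.499 ± 0.164 and Bcl2 at 0.248 ± 0.0264 RPKM closed it, and no neighbours in this order overlapped between libraries. Stimulated controls kept the same order, with Bid and Mcl1, and Bak1 and Pmaip1, overlapping. In vehicle controls the order was Bax, Mcl1 at 40.5 ± 0.553, Bcl2l1 at 35.6 ± 1.0, Bad at 34.2 ± 1.24, Bid at 14.9 ± 0.736, Bcl2l11 at 4.56 ± 0.252, Pmaip1 at 3.21 ± 0.270, Bak1 at 2.59 ± 0.616, Bbc3 at 0.908 ± 0.0417 and Bcl2 at 0.574 ± 0.0403 RPKM. There, Bcl2l1 overlapped with Bad and Pmaip1 with Bak1. Vehicle libraries labelled knockout gave that order with Bad above Bcl2l1, where Mcl1, Bad and Bcl2l1 overlapped as neighbours, and so did Pmaip1 and Bak1. The gap between Bad and Bcl2l1 rested on replicate 1, without which Bad averaged 32.09 and Bcl2l1 32.04 RPKM over 2 libraries. Bid therefore moved to the second place with stimulation, while Bcl2 was the lowest member in all 4 groups.

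Palmitate plus LPS moved 10 of the 10 members in macrophages labelled knockout, 6 higher and 4 lower (edgeR adjusted p under 0.05). Over all tested genes, 69.4% passed in that comparison, 33.7% higher and 35.6% lower. In controls, 9 of 10 moved, 5 higher and 4 lower, against 66.7% of all tested genes, 32% higher and 34.7% lower. The groups of 3 did not overlap for 10 and 9 members, where 70.4% and 74.8% of all tested genes did not. With so high a background, the counts say little about the members, and their directions and sizes are described gene by gene. The median log2 response of the 10 members was 0.39 in macrophages labelled knockout and 0.19 in controls, against -0.06 and -0.05 over all tested genes. Both effectors rose in both genotypes, of which the rise of Bax in macrophages labelled knockout was not called under total-count scaling. Among BH3-only genes, Bid and Pmaip1 rose while Bcl2l11, Bbc3 and Bad fell. Among the guardians, Bcl2 fell and Mcl1 rose, the second not under total-count scaling. Under that scaling 7 of 10 members were called in macrophages labelled knockout, 3 higher and 4 lower, and 8 of 10 in controls, 3 higher and 5 lower. Over all tested genes it gave 2676 higher and 6570 lower in macrophages labelled knockout, where TMM gave 4356 and 4600, and 2644 higher and 6416 lower in controls, where TMM gave 4132 and 4480.

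**Figure D1:**
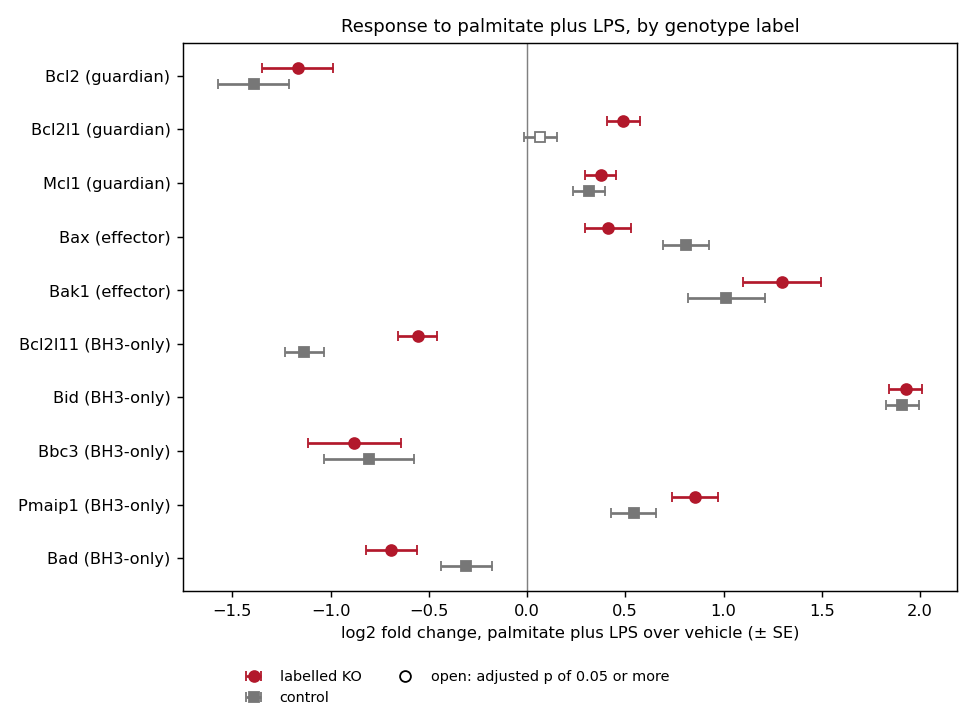
Log2 response to palmitate plus LPS over vehicle (± SE) of the 10 genes, in macrophages labelled knockout and in controls. Bid lies at 1.93 and 1.91, and Bcl2l11 at -0.56 in macrophages labelled knockout and -1.13 in controls.

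Of the guardians, Mcl1, which encodes a short-lived protector, had 205, 202 and 195 CPM in stimulated libraries labelled knockout and 171, 145 and 148 CPM in their vehicle libraries. It had 164, 185 and 178 CPM in stimulated controls and 143, 142 and 139 CPM in vehicle controls. All stimulated libraries lay above all vehicle libraries of their genotype, and the highest vehicle library was the one that stood apart. The log2 response was 0.38 ± 0.080 in macrophages labelled knockout and 0.31 ± 0.080 in controls (edgeR adjusted p = 0.000588 and 0.00254). Under scaling to the total count, which shifts the median response of all genes to -0.42 in macrophages labelled knockout and -0.38 in controls, Mcl1 stood at 0.01 and -0.02, neither called. Relative to the median gene it was 0.44 and 0.36 under that scaling, and 0.43 and 0.36 under TMM. Subtracting the median removes a shift shared by all genes, so both scalings had to give nearly the same values. Their likeness does not show which scaling holds, and the rise of Mcl1 rests on TMM.

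Bcl2, the founding guardian and a marker of long-lived lymphocytes, had 2.0, 2.33 and 2.47 CPM in stimulated libraries labelled knockout and 4.25, 5.57 and 5.44 CPM with vehicle. It had 2.37, 1.46 and 2.18 CPM in stimulated controls and 5.15, 5.67 and 4.95 CPM in vehicle controls. The gene was low throughout, with 27 to 148 counts a library, and every stimulated library lay below every vehicle library. Its log2 response was -1.17 ± 0.18 in macrophages labelled knockout and -1.39 ± 0.18 in controls, a level 0.445 and 0.381 times that with vehicle (edgeR adjusted p = 2.81e-05 and 5.14e-06). The summed B cell markers moved in the same direction, to 36.7 to 40.8 CPM in stimulated libraries labelled knockout, against 110 to 127 CPM with vehicle, and to 36.6 to 41.3 CPM in stimulated controls, against 120 to 134 CPM with vehicle. Of 7 B cell markers 6 were tested, of which 2, Cd22 and Ighm, fell in each genotype, while the other 4 did not pass and Pax5 was at 0 in both vehicle groups. The part of B cells in the Bcl2 result was not tested.

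Bcl2l1, whose main product BCL-XL protects the outer membrane, had 196, 184 and 208 CPM in stimulated libraries labelled knockout and 125, 154 and 140.4 CPM with vehicle. Controls had 166, 181 and 166 CPM after stimulation and 165, 158 and 167 CPM with vehicle, so the groups separated in macrophages labelled knockout and overlapped in controls. The log2 response was 0.49 ± 0.084 in macrophages labelled knockout (edgeR adjusted p = 8.81e-05) and 0.07 ± 0.084 in controls (edgeR adjusted p = 0.503). Total-count scaling gave 0.12 and -0.27, which ends the first call and turns the control value to a called fall. Against the median gene, the responses were 0.54 and 0.11 under that scaling, and 0.55 and 0.11 under TMM, a likeness that subtracting the median brings about by itself.

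Both effector genes rose. Bax, the cytosolic effector that moves to mitochondria on activation, had 266, 277 and 263 CPM in stimulated libraries labelled knockout and 254, 174 and 178 CPM with vehicle. It had 298, 315 and 317 CPM in stimulated controls and 171, 168 and 192 CPM in vehicle controls. The vehicle library that stood apart, replicate 1 labelled knockout, was well above the other 5 vehicle libraries, yet still below all 6 stimulated ones. The log2 response was 0.41 ± 0.12 in macrophages labelled knockout and 0.81 ± 0.12 in controls (edgeR adjusted p = 0.00526 and 1.68e-05). Without that library the response of macrophages labelled knockout was 0.61 ± 0.067 (edgeR adjusted p = 1.39e-09). Total-count scaling left it at 0.06, which was not called.

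Bak1, the effector that resides in the outer membrane, had 15.2, 15.5 and 14.3 CPM in stimulated libraries labelled knockout and 8.65, 5.33 and 4.54 CPM with vehicle. It had 12.9, 13.2 and 11.3 CPM in stimulated controls and 5.0, 5.82 and 7.88 CPM in vehicle controls. Stimulated and vehicle libraries did not overlap in either genotype, although single vehicle libraries varied widely. The rise was 2.46-fold in macrophages labelled knockout and 2.02-fold in controls, log2 values of 1.30 ± 0.20 and 1.01 ± 0.20 (edgeR adjusted p = 2.33e-05 and 0.000285). The highest vehicle library labelled knockout was the one that stood apart. Over 19 alternative settings the log2 response in macrophages labelled knockout ranged from 0.94 to 1.60 and was called in each. Bax made up 98.02% of the summed effector RPKM in stimulated libraries labelled knockout, 98.6% in stimulated controls, 98.9% in vehicle libraries labelled knockout and 98.8% in vehicle controls.

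Bid rose most of the 10 genes by fold change. Its product links death receptors to mitochondria once caspase-8 has cleaved it. Bid had 209.9, 216 and 214 CPM in stimulated libraries labelled knockout and 61.6, 56.0 and 50.8 CPM with vehicle. It had 186, 202 and 206 CPM in stimulated controls and 54.0, 49.7 and 54.5 CPM in vehicle controls. The stimulated libraries lay far above all vehicle libraries, and each genotype's values were close together. The rise was 3.8-fold and 3.76-fold, log2 values of 1.93 ± 0.084 in macrophages labelled knockout and 1.91 ± 0.084 in controls (edgeR adjusted p = 7.74e-12 and 9.97e-12). Bcl2l13, which shares exon bases with Bid on the other strand, had log2 responses of 0.21 ± 0.12 and 0.10 ± 0.12, neither called. Bid supplied 65.5% ± 1.451 of the summed RPKM of the 5 BH3-only genes in stimulated libraries labelled knockout and 61.5% ± 0.509 in stimulated controls, against 25.9% ± 1.86 in vehicle libraries labelled knockout and 25.7% ± 1.23 in vehicle controls.

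Pmaip1 (chromosome 18, 66458604 to 66465550, plus strand), a BH3-only gene whose product binds MCL1, had 13.9, 12 and 12.3 CPM in stimulated libraries labelled knockout and 6.34, 7.13 and 7.63 CPM with vehicle. It had 12, 11.7 and 13.5 CPM in stimulated controls and 9.15, 8.57 and 7.73 CPM in vehicle controls, with no overlap in either genotype. It rose by a log2 value of 0.85 ± 0.12 in macrophages labelled knockout and 0.54 ± 0.11 in controls (edgeR adjusted p = 7.71e-06 and 0.000573). The control rise was 0.21 and not called under total-count scaling.

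Of the 3 BH3-only genes that fell, Bcl2l11 encodes BIM, which binds all the main guardians. Bcl2l11 had 28.9, 26.1 and 25.3 CPM in stimulated libraries labelled knockout and 34.3, 41.4 and 42.3 CPM with vehicle. It had 17.4, 15.4 and 17.3 CPM in stimulated controls and 38.4, 37.0 and 34.4 CPM in vehicle controls. The 4 groups formed 3 tiers, with both vehicle groups at the top and overlapping, stimulated libraries labelled knockout in the middle and stimulated controls at the bottom. The level after stimulation was 0.68 times that with vehicle in macrophages labelled knockout and 0.456 times in controls, log2 responses of -0.56 ± 0.10 and -1.13 ± 0.10 (edgeR adjusted p = 0.000116 and 6.71e-08).

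Bad, which acts as a sensor of growth factor signals through its phosphorylation, had 48.5, 46.5 and 43.7 CPM in stimulated libraries labelled knockout and 95.4, 64.8 and 64.0 CPM with vehicle. It had 49.7, 58.6 and 58.0 CPM in stimulated controls and 65.8, 70.0 and 70.3 CPM in vehicle controls. Vehicle replicate 1 labelled knockout was again far above the other 5 vehicle libraries. The log2 response was -0.69 ± 0.13 in macrophages labelled knockout (edgeR adjusted p = 0.000193) and -0.48 ± 0.076 without that library. In controls it was -0.31 ± 0.13 (edgeR adjusted p = 0.0443). The control fall was not called in 12 of 19 alternative settings, with adjusted p up to 0.173. These included leaving out any 1 control library of either treatment or any 1 stimulated library labelled knockout, where the log2 value ranged from -0.35 to -0.22.

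Bbc3, which encodes PUMA, a target of p53, was at 12 to 51 counts a library. It had 0.706, 1.36 and 0.946 CPM in stimulated libraries labelled knockout and 1.52, 2.03 and 1.98 CPM with vehicle. It had 1.05, 1.13 and 0.933 CPM in stimulated controls and 1.79, 1.76 and 1.92 CPM in vehicle controls, and the treatments did not overlap. It fell to 0.544 times the vehicle level in macrophages labelled knockout and 0.572 times in controls, log2 values of -0.88 ± 0.23 and -0.81 ± 0.23 (edgeR adjusted p = 0.00353 and 0.00601).

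**Figure D2:**
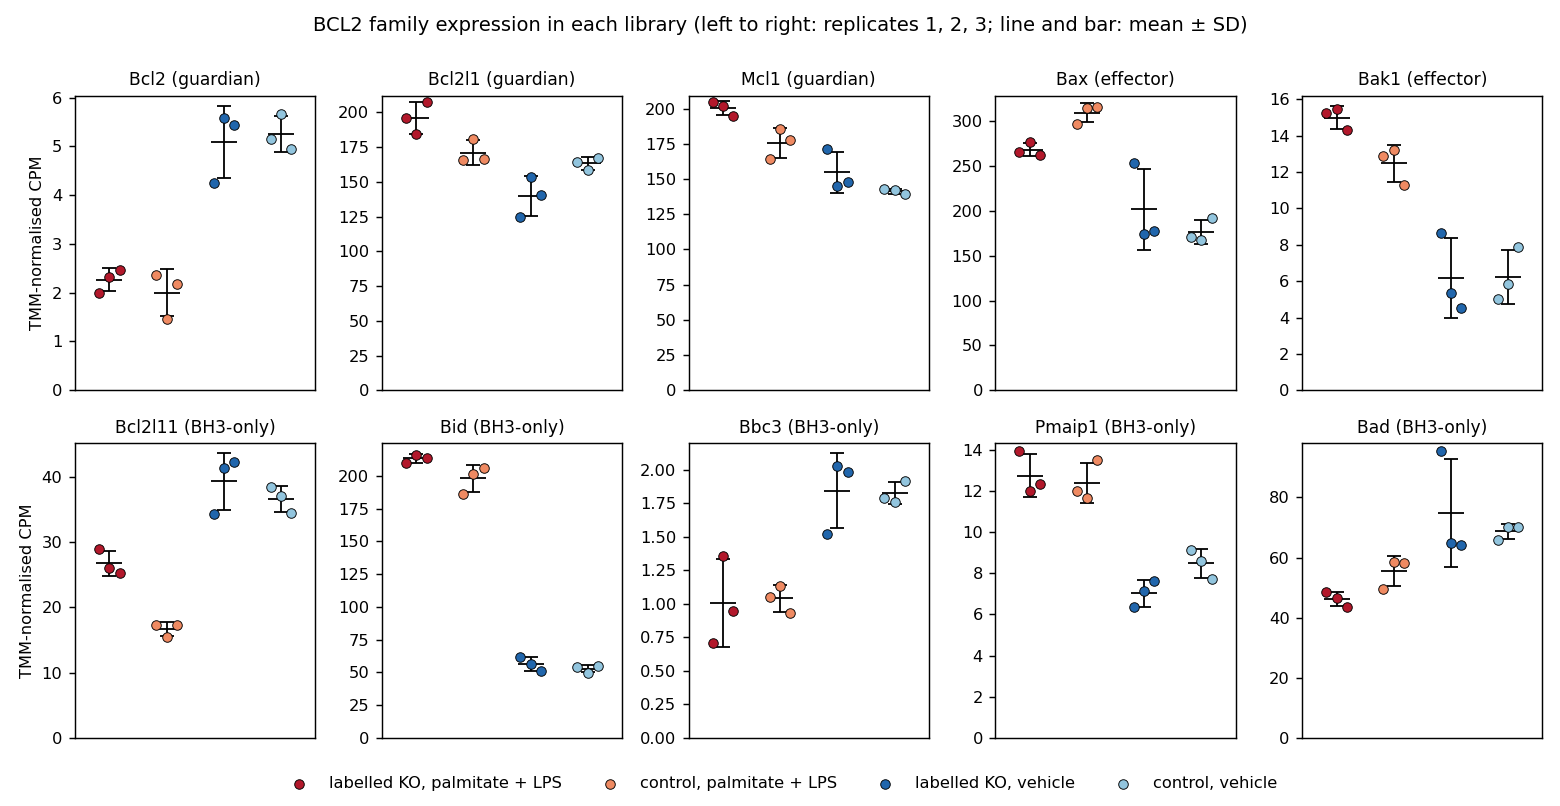
TMM-normalised CPM of each of the 10 genes in each of the 12 libraries, with group means as lines; each panel has its own axis. Bid shows a wide gap between treatments, and Bcl2l11 shows separate stimulated groups, 25.3 to 28.9 CPM in libraries labelled knockout and 15.4 to 17.4 CPM in controls.

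After palmitate plus LPS, 1 of the 10 members, Bcl2l11, differed between the genotype labels, against 16.1% of all tested genes, 10% higher and 6.1% lower. In genes these were 1293 higher and 788 lower, and total-count scaling turned the split to 841 higher and 1578 lower, with 1 member higher and 2 lower. Bcl2l11 averaged 26.8 ± 1.91 CPM in libraries labelled knockout and 16.7 ± 1.10 CPM in controls. The difference was 1.6-fold, a log2 value of 0.68 ± 0.10 (edgeR adjusted p = 0.000331), and it was called in 19 of 19 alternative settings, at log2 values of 0.60 to 0.72. Leaving out the vehicle library that stood apart gave 0.68 ± 0.082. DESeq2 also called 1 member. In these same groups the summed fibroblast and mesothelial markers were 197 to 346 CPM in libraries labelled knockout and 143 to 166 CPM in controls, with 5 of 9 of these markers called higher, and the neutrophil sum was 143 to 173 against 106 to 115 CPM. Of 7 neutrophil markers 4 were tested, of which Csf3r was higher, at 0.59 ± 0.088, Mmp8 higher, at 1.18 ± 0.16, S100a8 lower, at -1.11 ± 0.17, and Cxcr2 not called, while Ly6g and S100a9 were at 0 in both stimulated groups. Their part in the Bcl2l11 result was not tested.

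For 7 of the 10 members the stimulated libraries of the genotype labels did not overlap, as for 42.2% of all tested genes. Beside Bcl2l11, these were the guardians Bcl2l1 and Mcl1, the effectors Bax and Bak1, and the BH3-only genes Bid and Bad. Libraries labelled knockout held the higher values of Bcl2l1, with a log2 difference of 0.20 ± 0.084, of Mcl1, with 0.19 ± 0.080, of Bak1, with 0.27 ± 0.19, and of Bid, with 0.11 ± 0.081 (edgeR adjusted p = 0.126, 0.116, 0.359 and 0.397). They held the lower values of Bax, with -0.21 ± 0.12, and of Bad, with -0.26 ± 0.13 (edgeR adjusted p = 0.247 and 0.186). None of these 6 passed the test that shares its spread over all 12 libraries. The fit without vehicle replicate 1 labelled knockout, a library outside this contrast that enters the shared spread, called 5 members. They were Bcl2l11, Bcl2l1 at 0.20 ± 0.061, Mcl1 at 0.19 ± 0.057, Bax at -0.21 ± 0.059 and Bad at -0.26 ± 0.070 (edgeR adjusted p = 0.0135, 0.0112, 0.00672 and 0.00384 for the last 4). A fit of only the stimulated groups called 6, Bak1 with these 5. Both fits also called more of all genes, 4080 without that library and 3811 with only the stimulated groups, against 2081.

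With vehicle, 0 of the 10 members differed between the genotype labels by edgeR's adjusted p, where 3.8% of all tested genes passed, 2.11% higher and 1.69% lower. At an unadjusted p under 0.05 there were 2, Bcl2l1 and Pmaip1, and DESeq2 called 0. The share of all tested genes at that unadjusted p was not computed, here or for the lists below. Such counts therefore cannot be set against a background. Bcl2l1 averaged 139.6 ± 14.3 CPM in vehicle libraries labelled knockout and 163 ± 4.59 CPM in vehicle controls, so that the log2 difference was -0.23 ± 0.084 (edgeR adjusted p = 0.181). Pmaip1 averaged 7.03 ± 0.648 CPM and 8.48 ± 0.716 CPM in these groups, a log2 difference of -0.27 ± 0.12 (edgeR adjusted p = 0.267). Libraries of these 2 genes and of Mcl1 did not overlap between the labels, 3 of 10 members against 19.8% of all tested genes. Replicate 1 labelled knockout was the highest vehicle library for Bax, Bak1, Mcl1, Bid and Bad, and the lowest for Bcl2l1, Bcl2l11, Bcl2, Bbc3 and Pmaip1. Without it the log2 differences were -0.01 ± 0.066 for Bax, -0.09 ± 0.074 for Bad and -0.31 ± 0.15 for Bak1, against 0.19 ± 0.12, 0.12 ± 0.13 and -0.02 ± 0.20 with it, and none was called. The vehicle difference of Bcl2l11 was 0.10 ± 0.10 with that library and 0.19 ± 0.080 without it.

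**Figure D3:**
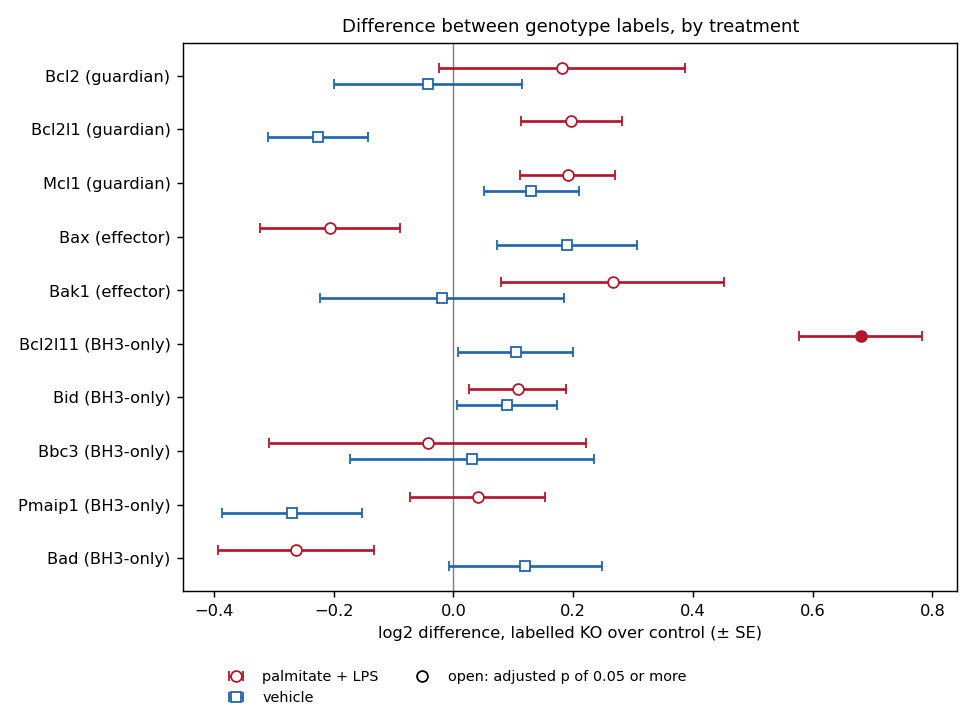
Log2 difference of libraries labelled knockout over controls (± SE) for each of the 10 genes, after palmitate plus LPS and with vehicle. Filled symbols passed an adjusted p of 0.05, which Bcl2l11 alone did, at 0.68 after stimulation.

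The response itself differed between the genotype labels for 2 of 10 members, both with a positive difference, against 8.05% of all tested genes, 4.7% positive and 3.35% negative. In genes these were 607 positive and 432 negative, and total-count scaling gave 388 positive and 788 negative. This interaction is the log2 response in macrophages labelled knockout minus that in controls. It was 0.58 ± 0.14 for Bcl2l11, which fell less in macrophages labelled knockout, and 0.42 ± 0.12 for Bcl2l1, which rose in macrophages labelled knockout (edgeR adjusted p = 0.0225 and 0.0416). Both calls depended on the setting. The Bcl2l11 call was lost in 7 of 18 alternative settings and the Bcl2l1 call in 11 of 18, with log2 values of 0.49 to 0.63 and 0.35 to 0.50 over all 18. For Bcl2l11 the losses included leaving out vehicle control replicate 1 or 2, stimulated control replicate 2 or 3, or stimulated replicate 1 labelled knockout, with edgeR adjusted p of 0.0721, 0.0648, 0.0709, 0.0543 and 0.0680. For Bcl2l1 they included leaving out any 1 of the 6 control libraries or the 3 stimulated libraries labelled knockout, with edgeR adjusted p of 0.0544 to 0.116. Without vehicle replicate 1 labelled knockout the interaction was 0.49 ± 0.12 for Bcl2l11 and 0.35 ± 0.091 for Bcl2l1, both called, and Bak1 was called as well, at 0.58 ± 0.19 (edgeR adjusted p = 0.00415, 0.00906 and 0.0459). With all libraries Bak1 stood at 0.28 ± 0.28, Bax at -0.40 ± 0.17 and Bad at -0.38 ± 0.18, none called. Total-count scaling called neither Bcl2l11 nor Bcl2l1 but Bax, with the negative value of -0.42 (edgeR adjusted p = 0.0495), and the fit with no filter called Bax as well, at -0.39 (edgeR adjusted p = 0.0410). Bid, the member that rose most, stood at 0.02 ± 0.12.

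The roles can be set against each other by their summed RPKM, as descriptions without a test. The guardian sum holds Bcl2, Bcl2l1 and Mcl1 alone, without the A1 guardians described below. Of these, Bcl2a1d had 110, 106 and 107 RPKM in stimulated libraries labelled knockout and 6.56, 5.17 and 4.83 with vehicle. It had 126, 154 and 151 RPKM in stimulated controls and 5.58, 5.46 and 6.96 with vehicle. The ratios therefore hold for Bcl2, Bcl2l1 and Mcl1 only, and ratios with A1 were not computed. The effector sum was 3.14 ± 0.145 times the guardian sum in stimulated libraries labelled knockout and 4.12 ± 0.132 times in stimulated controls. With vehicle it was 3.11 ± 0.64 times in libraries labelled knockout and 2.69 ± 0.199 times in controls. Vehicle replicate 1 labelled knockout stood at 3.84 times, and replicates 2 and 3 at 2.67 and 2.81 times. The BH3-only sum was 0.913 ± 0.0251 times the guardian sum in stimulated libraries labelled knockout and 1.03 ± 0.0452 times in stimulated controls, and 0.815 ± 0.108 times in vehicle libraries labelled knockout and 0.753 ± 0.0123 times in vehicle controls. Of these vehicle libraries labelled knockout, replicate 1 stood at 0.940 times and replicates 2 and 3 at 0.752 and 0.753 times, within the control values. The ratio of Bcl2l11 to Mcl1, the guardian that BIM and NOXA both bind, was 0.0579 ± 0.00295 in stimulated libraries labelled knockout and 0.0414 ± 0.00495 in stimulated controls. With vehicle it was 0.0868, 0.124 and 0.124 in libraries labelled knockout, against 0.117, 0.113 and 0.107 in controls, so that replicate 1 labelled knockout lay below and replicates 2 and 3 above all 3 controls.

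Larger responses than any member's were found among BCL2 relatives outside the 10 members. Of 15 listed genes 10 were tested, of which 4 rose and 4 fell in macrophages labelled knockout, and 5 rose and 4 fell in controls. The A1 guardians, products of a set of near-identical mouse genes known as LPS targets, led the list: Bcl2a1d rose by a log2 value of 4.29 ± 0.13 in macrophages labelled knockout and 4.59 ± 0.13 in controls, and Bcl2a1a by 4.42 ± 0.18 and 4.53 ± 0.18 (edgeR adjusted p = 6.78e-14, 2.98e-14, 4.36e-12 and 2.79e-12). Bcl2a1b rose by 1.99 ± 0.15 and 2.46 ± 0.15. How reads were shared among these copies is uncertain. Bnip3l, a mitophagy receptor, fell, with log2 responses of -1.32 ± 0.080 and -1.05 ± 0.079. After stimulation 2 of the 10 were lower in libraries labelled knockout: Bcl2a1d, at 92.8 ± 1.83 CPM against 124 ± 13.2 CPM in controls, and Bnip3l, with a log2 difference of -0.29 ± 0.080 (edgeR adjusted p = 0.0132 and 0.0206). Each call was lost in 4 of 19 alternative settings, with adjusted p up to 0.071 and 0.082: both without stimulated control replicate 2 or 3 or stimulated replicate 3 labelled knockout, Bcl2a1d also without stimulated replicate 2 labelled knockout and Bnip3l without replicate 1 of that group. With vehicle 0 of 10 were called, by edgeR, by DESeq2 or at an unadjusted p under 0.05. Without vehicle replicate 1 labelled knockout, Bcl2a1a was called there, at -0.59 ± 0.16 against -0.24 ± 0.21 with it, and after stimulation Bcl2a1a and Bcl2a1b were called too, at -0.35 ± 0.071 and -0.39 ± 0.071 (edgeR adjusted p = 0.0188, 0.000274 and 7.68e-05 without it).

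The list of apoptosome and caspase genes also holds Casp8 and its inhibitor Cflar, which act upstream of BID. Of its 11 genes, 8 rose and 2 fell in macrophages labelled knockout, and 6 rose and 3 fell in controls. Cflar encodes FLIP, an inhibitor of caspase-8. It rose by log2 values of 4.07 ± 0.11 and 3.52 ± 0.11, to 775 ± 33.4 CPM in stimulated libraries labelled knockout and 574 ± 19.9 CPM in stimulated controls, which differed (edgeR adjusted p = 0.00584). Its interaction of 0.56 ± 0.14 was lost in 8 of 18 alternative settings, with adjusted p up to 0.0731, among them leaving out control replicate 2 of either treatment, vehicle control replicate 1, stimulated control replicate 3, or stimulated replicate 2 or 3 labelled knockout. Casp8, the caspase that cleaves BID, rose by 1.64 ± 0.10 and 1.39 ± 0.10 (edgeR adjusted p = 5.75e-10 and 5.17e-09). After stimulation 3 of the 11 genes were higher in libraries labelled knockout and none lower. With vehicle 0 of 11 were called by edgeR or DESeq2, and 1 had an unadjusted p under 0.05.

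Of the 7 inhibitor of apoptosis genes and their antagonists, 5 rose and 2 fell in macrophages labelled knockout, and 4 rose and 2 fell in controls. Birc3, which encodes the NF-kB target cIAP2, rose by log2 values of 2.07 ± 0.083 and 1.90 ± 0.083. Birc6, a large ubiquitin ligase that inhibits caspases, rose by 1.14 ± 0.10 and 0.37 ± 0.10, the control rise not being called under total-count scaling, with an interaction of 0.76 ± 0.15 (edgeR adjusted p = 0.00673). Diablo, whose product is released from mitochondria and binds these inhibitors, rose by 1.06 ± 0.081 and 1.03 ± 0.081, and Htra2, a mitochondrial protease with the same property, fell, with log2 responses of -0.99 ± 0.093 and -0.64 ± 0.091. After stimulation 3 were higher and 1 lower in libraries labelled knockout, among them Birc6 at 0.55 ± 0.10 and Birc3 at 0.26 ± 0.078 (edgeR adjusted p = 0.00201 and 0.0333, the second lost in 11 of 19 alternative settings, with adjusted p up to 0.212, including the loss of any 1 stimulated library or of vehicle control replicate 1 or 2). With vehicle 0 of 7 were called by edgeR or DESeq2 and 0 at an unadjusted p under 0.05.

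Of 16 listed regulators of the family 14 were tested. In macrophages labelled knockout 6 rose and 5 fell, and in controls 4 rose and 4 fell. Foxo3, a transcription factor known to drive Bcl2l11 and Bbc3, had 9.41, 10.9 and 10.4 CPM in stimulated libraries labelled knockout and 14.6, 13.6 and 15.2 CPM in stimulated controls. It had 27.9, 27.7 and 28.1 CPM in vehicle libraries labelled knockout and 44.5, 45.0 and 51.4 CPM in vehicle controls. The groups did not overlap, and Foxo3 was lower in libraries labelled knockout under both treatments, at log2 differences of -0.50 ± 0.10 and -0.75 ± 0.087 (edgeR adjusted p = 0.00268 and 6.58e-05), called in 19 of 19 alternative settings each. The stimulated libraries labelled knockout had more Bcl2l11 and less Foxo3 RNA than stimulated controls, and a link between them was not tested. Foxo3 fell with stimulation, with log2 responses of -1.44 ± 0.10 in macrophages labelled knockout and -1.69 ± 0.092 in controls. E2f1, a cell cycle factor that can induce BH3-only genes, fell, with log2 responses of -1.84 ± 0.092 and -1.27 ± 0.089, with a difference of -0.50 ± 0.10 between the labels after stimulation. Mdm2, the ubiquitin ligase of p53, rose by 2.31 ± 0.11 and 1.86 ± 0.11, and Stat3, which can induce Mcl1 and Bcl2l1, by 1.58 ± 0.10 and 1.14 ± 0.10. Among 3 outer membrane channel genes, Vdac3 rose by 0.83 ± 0.10 and 1.05 ± 0.10 and Vdac1 fell, with log2 responses of -0.60 ± 0.080 and -0.48 ± 0.080. Vdac2, whose product binds BAK, stood at 0.08 ± 0.10 in macrophages labelled knockout and 0.25 ± 0.10 in controls, the first called without vehicle replicate 1 labelled knockout, at 0.22 ± 0.069, and total-count scaling turned both negative, to -0.28 and -0.08. The control call of Vdac2 was also lost without control replicate 2 of either treatment, vehicle control replicate 1 or stimulated control replicate 3. No channel gene differed between the labels by edgeR, DESeq2 or an unadjusted p under 0.05 under either treatment.

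The genes whose levels were most like a member's were found by Pearson's r of log2 CPM over the 12 libraries, as a description, since these points share treatment and library composition. Bid was closest to Eif4e, Car13 and Slc31a2, each at r = 0.999. Bcl2l11 was closest to Pcyt1a at 0.991, Dio2 at 0.988 and Ddx5 at 0.986. Bax was closest to Manbal at 0.996, Csnk2b at 0.994 and Mrpl46 at 0.991, and Bad to Mrps21 at 0.994, Atpif1 at 0.991 and Lamtor2 at 0.989. Bcl2l1 had the lowest values, 0.951 with B430306N03Rik and 0.936 with Edrf1 and A730011C13Rik. With each group's mean subtracted, Bax was closest to Atp6v1f, Taldo1 and Rpl26, at 0.991, 0.991 and 0.990, and Bad to Commd1, Pfdn6 and Commd4, at 0.990, 0.986 and 0.986. The vehicle library that stood apart was the highest vehicle library for both Bax and Bad. Bcl2l11 was then closest to Trps1 at 0.963, Tox4 at 0.962 and Svil at 0.957.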

How the data were processed

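Per the labels' protocols, RNA came from Ambion column kits and the library kit was SMARTer v1 of Clontech. Per the submitters' processing notes, the tools were featureCounts 1.45 of Subread, STAR 2.0.4b and bcl2fastq 2.0, and the build was GRCm38. Neither the annotation nor the use of strand in counting is given in the sources used here. There was 1 deposited table a library, with the authors' whole-number count per Ensembl gene, their CPM (each count relative to its library total) and their RPKM (that CPM per kilobase of exon). The deposited CPM and RPKM were recomputed from the counts to check them and entered no test.

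The tests used the deposited counts. Low genes were removed with filterByExpr, which left 12914 genes holding 99.918% or more of the counts in every library. TMM scaling gave factors of 0.847 to 0.939 in stimulated and 1.03 to 1.18 in vehicle libraries. The edgeR quasi-likelihood F-test (version 4.0.16, R 4.3.3, robust) took all 12 libraries and 1 mean for each group, for 5 comparisons: treatment within each genotype label, genotype label within each treatment, and their interaction. P-values were adjusted over all tested genes (Benjamini-Hochberg, threshold 0.05). The fit was tested on simulated data. CPM values in the text use the TMM library size, and RPKM values add the deposited exon length. Depth limits Bbc3 and Bcl2 most, at 12 to 51 and 27 to 148 counts a library. Within-group pairs of libraries differed by 2.33 to 44.3 times the sampling noise (chi-square per degree of freedom), so none was counted as a duplicate. The labels do not say that libraries came from separate mice, so p-values measure only the spread between these samples.

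The members and gene lists were chosen with earlier results of these data known. By rule, the text names all 10 members, and of each other list up to 4 genes with the smallest p in a treatment response and up to 2 that were called in each genotype comparison, a subset of which is described, plus the targeted gene and, for each member, the 3 genes most like it. Bcl2l13 is named for its shared exon bases. Some results are withheld for evaluation and are not reported here. Alternatives were RLE and total-count scaling, no filter, a non-robust fit, a replicate block, only the 2 groups compared, DESeq2 1.42.0 and leaving out each library.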

Additional observations from a re-analysis of the deposited data

Results flagged for a closer look

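The log2 response to palmitate plus LPS differed between the genotype labels for 2 members, by the interaction term of the edgeR fit. For Bcl2l11, which encodes BIM, the response in macrophages labelled knockout minus that in controls was 0.58. For Bcl2l1, which encodes BCL-XL, it was 0.42. Groups of 3 libraries are too small for a test of single outlying libraries.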

How the results depend on the processing

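Each comparison was recomputed under 19 alternatives (18 for the interaction, which needs all 4 groups and so was not run with only 2). The counts of members and of all genes that responded to treatment stayed within 1.5 times in every alternative. Over single members, 890 of 940 values stayed on their side of the threshold, of which 23, called in neither fit, had the other sign. A further 34 lost the call, 14 gained it and 2 that were called in either fit changed sign. After stimulation, the members called between genotype labels were 3 with total-count scaling, 6 with only the 2 groups and, leaving out 1 library, 1 to 5. Members with an interaction were 1 with total-count scaling (Bax, at -0.42), 0 with a replicate block and 0 to 3 leaving out 1 library. Over all genes, the count was 960 with no filter, 229 with only the 2 groups and 261 to 789 leaving out 1 library between labels with vehicle, 3811 with only the 2 groups and 1227 to 4080 leaving out 1 library after stimulation, and for the interaction 1875 with no filter, 514 with a replicate block and 428 to 1962 leaving out 1 library. Under total-count scaling the control response turned negative for Bcl2l1 (-0.27), Mcl1 (-0.019) and Vdac2 (-0.080), and so did that of Vdac2 in macrophages labelled knockout (-0.28). This scaling shifts all genes' median. The cause of the other changes was not tested. Libraries with the same number did not pair: their deviations correlated at -0.274 to 0.0517 over 18 pairs, and 7 of 36 checks put a library closest to its own number. The replicate block left the calls between labels after stimulation at 1 of 10 and with vehicle at 0 of 10.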

Other observations

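The genes given here belong to the lists above and were picked after their values were seen. Bmf, a BH3-only gene whose product responds to loss of attachment, had 0.471, 0.488 and 0.631 CPM in stimulated libraries labelled knockout and 0.526, 0.540 and 0.518 CPM in stimulated controls, against 2.20, 2.71 and 4.37 CPM in vehicle libraries labelled knockout and 3.36, 2.45 and 3.99 CPM in vehicle controls. Its log2 response was -2.54 ± 0.32 in macrophages labelled knockout and -2.60 ± 0.32 in controls (edgeR adjusted p = 3.26e-06 and 2.32e-06), called in 19 of 19 alternative settings each. Casp9, the initiator caspase of the apoptosome, went against Casp8: its log2 response was -0.85 ± 0.11 in macrophages labelled knockout and -1.22 ± 0.11 in controls (edgeR adjusted p = 3.29e-06 and 5.44e-08). Of 2 stress factors that act on BH3-only genes, Ddit3, which encodes CHOP, rose by a log2 value of 1.95 ± 0.17 in macrophages labelled knockout and 2.18 ± 0.17 in controls (edgeR adjusted p = 5.42e-08 and 1.74e-08). The RNA of Trp53, which encodes p53, gave -0.02 ± 0.11 and 0.15 ± 0.11, neither called (edgeR adjusted p = 0.873 and 0.227). None of these 4 differed between the genotype labels by edgeR's adjusted p under either treatment, with log2 differences of -0.18 to 0.22. Without vehicle replicate 1 labelled knockout, Casp9 was called after stimulation, at 0.20 ± 0.076, and the control response of Trp53 was called, at 0.15 ± 0.067 (edgeR adjusted p = 0.0481 and 0.0394).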
